A study of Mus musculus with 9 samples.

Results

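The genes described here encode subunits of the 5 complexes of the mitochondrial respiratory chain, and they were picked by gene symbol: the protein-coding genes of mitochondrial DNA (mt-Nd, mt-Co, mt-Cytb and mt-Atp) and the nuclear Nduf, Sdh, Uqcr, Cox and Atp5 families, without pseudogenes and without the hypoxia forms Ndufa4l2 and Cox4i2. The rule found 90 of the 27207 genes in the table, 8 from mitochondrial DNA and 82 from the nucleus. RNA was taken from the entire lung of E18.5 mouse embryos, in 3 groups of 3 libraries. Lungs labelled strong CKO and weak CKO carry a Tbx4-rtTA driver with a Tet-O-Cre transgene and deleted Dnmt1 alleles (Dnmt1-D/D), which removes Dnmt1, the maintenance DNA methyltransferase, where the driver is active. Tbx4-rtTA is known to act in lung mesenchyme. Strong CKO lungs had widespread haemorrhage in the parenchyma, weak CKO lungs had none, and the third group was wild type (WT). The labels do not state when Cre was induced, how many litters were used or which transgenes WT embryos carried. Cre acts in a fraction of the cells, so values are averages over deleted and undeleted cells.

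In the respiratory chain, complex I takes electrons from NADH and complex II from succinate, complex III passes them on through cytochrome c, and complex IV hands them to oxygen. Complexes I, III and IV pump protons, and complex V, the ATP synthase, uses the gradient to make ATP. Complex II is built from nuclear subunits alone, while the other complexes join subunits encoded in mitochondrial DNA, where whole strands are transcribed and then processed, to nuclear subunits made in the cytosol and imported. Several complex IV subunits exist as pairs of genes, with a general form and a form found mainly in heart and skeletal muscle or in testis.

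Column totals ran from 25607595 to 33156732 counts. Values per library are CPM, counts scaled to library size with TMM factors, and a gene was called at an adjusted p under 0.05 (edgeR quasi-likelihood test, Benjamini-Hochberg over 19374 genes). Dnmt1 itself had 62.0, 78.7 and 65.1 CPM in strong CKO lungs, 59.1, 69.1 and 80.6 CPM in weak CKO lungs, and 79.1, 121 and 97.2 CPM in WT lungs. Its log2 change was -0.53 ± 0.17 (SE) in strong CKO lungs (edgeR adjusted p = 0.0433) and -0.51 ± 0.17 in weak CKO lungs (edgeR adjusted p = 0.0727, not called). Libraries are MUT_S_265_5, MUT_S_268_4 and MUT_S_860_3 (strong CKO), MUT_W_265_2, MUT_W_268_3 and MUT_W_549_3 (weak CKO), and WT_265_1, WT_268_1 and WT_549_2, and values are listed in that order. The meaning of the shared middle number was not given. WT_549_2 and MUT_W_549_3 had the lowest summed mitochondrial share of their groups, and that share is also compared within each number. Sftpc, which marks alveolar type II cells, was high in every library, at 5747 to 6898 CPM in strong CKO lungs, 7303 to 8093 CPM in weak CKO lungs and 6725 to 10330 CPM in WT lungs. Over all genes tested, 25.6% were called in strong and 14.5% in weak CKO lungs. Of 8 genes of lung mesenchyme, 2 rose and 5 fell in strong CKO lungs and 1 rose and 4 fell in weak CKO lungs, and of 10 lung epithelium genes 1 rose and 4 fell and 1 rose and 1 fell in the same contrasts. The part of these shifts in the results below was not tested.

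Of the 13 protein-coding genes that the GENCODE M21 annotation places on mitochondrial DNA (GRCm38), 8 were in the table and the other 5, mt-Co2, mt-Atp8, mt-Atp6, mt-Co3 and mt-Nd4l, were not analysed here. The mitochondrial side of complex V is therefore not covered, and complex IV is covered by mt-Co1 alone. The eighth gene in the table, mt-Nd3 (chromosome MT, 9459 to 9806, plus strand), a core subunit of complex I, had 0 to 4 counts per library, while the other 7 had 32182 to 212503 counts. A copy of part of mitochondrial DNA lies on chromosome 1 between 24611535 and 24616197, annotated as a run of pseudogenes. Of all 75-base stretches of the mt-Nd3 transcript, the read length of these libraries, 97.8% also occur in another gene's transcript, mainly in Gm28438 of that run. The shared letters are shown here for bases 101 to 175 of mt-Nd3 and for the same stretch of Gm28438, with capitals reserved for bases that differ, of which there are none.
mt-Nd3, chrM:9559-9633, plus strand: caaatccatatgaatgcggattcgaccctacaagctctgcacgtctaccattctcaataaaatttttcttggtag
Gm28438, chr1:24612945-24613019, minus strand: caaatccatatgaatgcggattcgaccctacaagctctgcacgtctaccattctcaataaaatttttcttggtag

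The share of 75-base stretches found elsewhere was 61.5% for mt-Nd4 and 39.8% for mt-Co1, 5.71% for mt-Nd2, 1.66% for mt-Nd5, and 0 for mt-Nd1, mt-Nd6 and mt-Cytb. Among the 5 genes not analysed here it was 98.7% to 99.9% for mt-Nd4l, mt-Co2, mt-Atp6 and mt-Co3, but 0 for mt-Atp8, which overlaps mt-Atp6. How reads that map to several places were counted was not given, so the counts of mt-Nd3, mt-Nd4 and mt-Co1 are uncertain, and no level or change is read from mt-Nd3. mt-Nd5 and mt-Nd6 lie on opposite strands with overlapping ends, and the use of strand in counting was not given. Within the chromosome 1 run, Gm28437 had 0 to 3 counts and Gm29216 had 12 to 35 counts per library, and its other pseudogenes were not in the table.

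Levels can be set side by side between genes only per length, here as the mean over 9 libraries of CPM per kb of annotated exon. On that scale the 7 tested mitochondrial genes lay between 1440 (mt-Nd4) and 4569 (mt-Cytb, the cytochrome b of complex III), with mt-Co1, the catalytic core of complex IV, at 4023. The 81 tested nuclear members lay between 1.59 and 192, with a median of 33.3 against 2476 for the mitochondrial genes. The highest nuclear members were Atp5a1 at 192 and Atp5b at 146, the alpha and beta subunits of the ATP synthase head, and Cox4i1 at 160, Cox6b1 at 157 and Cox8a at 155, general subunits of complex IV. All 7 tested mitochondrial genes were above every nuclear member. Merged exons cover every annotated transcript of a gene, so a nuclear level per kb falls as more exon is annotated. The size of the gap is therefore uncertain. In RPKM deposited by the authors the gap is wider, since the deposited gene length counts the exons of every transcript of a gene and exceeded the merged exon length 1.76-fold in the median nuclear member.

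**Figure D1:**
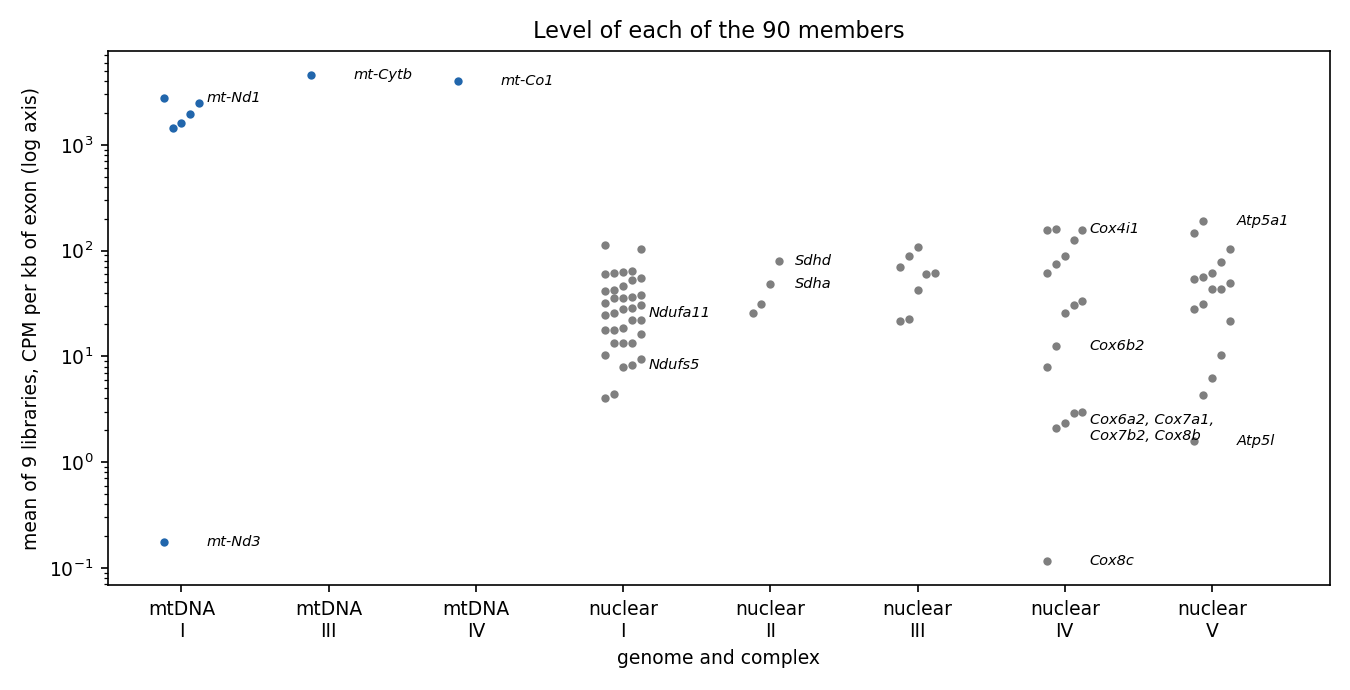
Mean level of each of the 90 members over 9 libraries, in CPM per kb of annotated exon on a log axis, by genome and complex (1 point per gene). Tested mitochondrial genes sit between 1440 and 4569, nuclear members at or below 192, and mt-Nd3 and Cox8c near the bottom.

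Within complexes the spread between nuclear members was wide on this scale, which also carries differences in annotated exon length. Merged exons came to 5628 bases in Ndufb2 and 754 in Ndufc2, and to 6443 in Atp5l and 3135 in Atp5a1. The part of exon length in the spread was not tested. Complex I members ran from 4.03 (Ndufb2) to 114, with a median of 28.4, and the 4 complex II members from 25.8 to 80.2. Complex III members ran from 21.7 (Uqcrq) to 109, complex IV members that were tested from 2.10 (Cox8b) to 160, and complex V members from 1.59 (Atp5l) to 192. The muscle and testis forms Cox8b, Cox7b2, Cox7a1 and Cox6a2 were the 4 lowest tested members of complex IV, at 2.10 to 2.96 CPM per kb. No nuclear member shares as much as 50% of its 75-base stretches with other genes, and the highest shares were 35.8% for Atp5g2 and 34.2% for Atp5o. Exons of 34 of the 90 members also overlap those of another gene, and levels of all such genes are uncertain.

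The mitochondrial genes did not pass the test in either CKO group. edgeR called 0 of 7 in strong CKO lungs against WT, where it called 25.6% of all genes tested, and 0 of 7 in weak CKO lungs against WT, where it called 14.5%. None of the 7 had an unadjusted p under 0.05 in these contrasts, and DESeq2 also called 0. The smallest edgeR adjusted p was 0.234 in strong CKO lungs and 0.298 in weak CKO lungs, for mt-Nd4 in each case. The groups overlapped for all 7 genes.

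By library, mt-Cytb had 5576, 5630 and 4717 CPM in strong CKO lungs, 5902, 5587 and 4935 CPM in weak CKO lungs, and 5446, 4914 and 4336 CPM in WT lungs. The lowest library of each CKO group lay inside the WT range. mt-Co1 had 6485, 5975 and 5578 CPM in strong CKO lungs, 6995, 6259 and 5943 CPM in weak CKO lungs, and 7414, 6239 and 5053 CPM in WT lungs. For mt-Co1 the highest and the lowest of the 9 libraries were both WT.

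Among the complex I genes of mitochondrial DNA, which form its membrane arm, mt-Nd1 had 3087, 2787 and 2465 CPM in strong CKO lungs, 3089, 2949 and 2295 CPM in weak CKO lungs, and 2769, 2607 and 1968 CPM in WT lungs. mt-Nd5 had 3782, 3948 and 3293 CPM in strong CKO lungs, 4381, 4078 and 2794 CPM in weak CKO lungs, and 3581, 3487 and 2682 CPM in WT lungs. In both genes all 3 strong CKO libraries stood above WT_549_2 but not above all WT libraries. mt-Nd4 had 2156, 2085 and 1949 CPM in strong CKO lungs, 2193, 2090 and 1899 CPM in weak CKO lungs, and 2032, 1764 and 1692 CPM in WT lungs. WT_265_1, at 2032 CPM, was the only WT value inside the CKO ranges of mt-Nd4. mt-Nd2 spanned 1457 to 1812 CPM in strong CKO lungs, 1481 to 1918 CPM in weak CKO lungs and 1350 to 1708 CPM in WT lungs. mt-Nd6, the gene on the other strand, spanned 1224 to 1465 CPM in strong CKO lungs, 1008 to 1459 CPM in weak CKO lungs and 1138 to 1264 CPM in WT lungs.

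The log2 changes in strong CKO lungs were 0.19 ± 0.14 for mt-Nd6, 0.18 ± 0.16 for mt-Nd1, 0.18 ± 0.17 for mt-Nd5, 0.17 ± 0.10 for mt-Nd4, 0.12 ± 0.13 for mt-Cytb, 0.05 ± 0.14 for mt-Nd2 and -0.05 ± 0.15 for mt-Co1 (SE). In weak CKO lungs they ran from 0.04 ± 0.15 for mt-Co1 to 0.21 ± 0.17 for mt-Nd5. The sign for mt-Co1 in both contrasts, and for mt-Nd2 in strong CKO lungs, turned when single libraries were left out. The 95% intervals stayed inside a 1.5-fold change either way for 7 of 7 genes in strong CKO lungs and for 6 of 7 in weak CKO lungs, where mt-Nd5 reached 1.51-fold. Changes inside these intervals are not excluded with 3 libraries a group, and the smallest detectable change was not worked out.

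**Figure D2:**
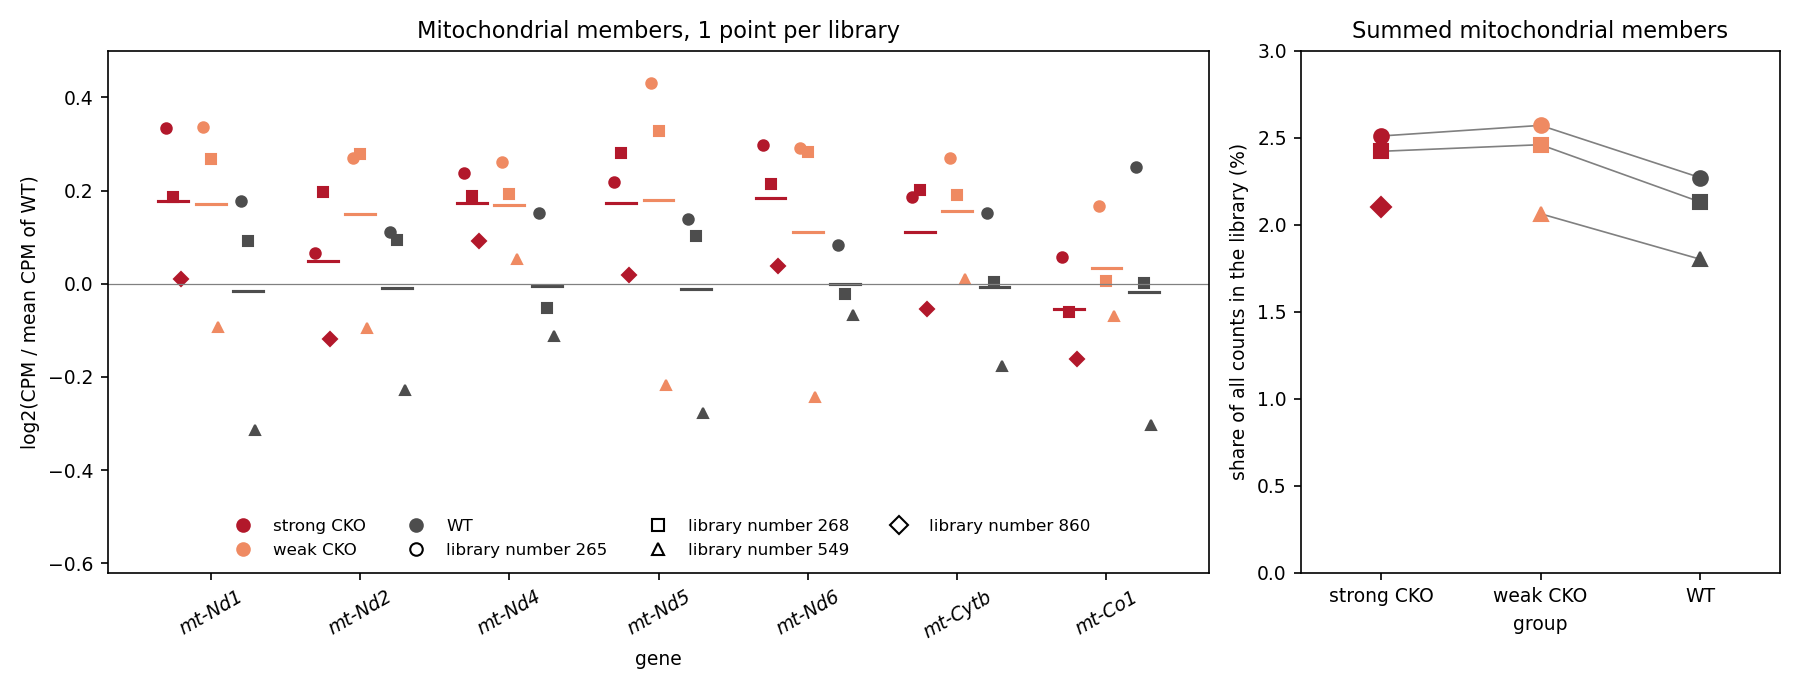
Left, CPM of 7 mitochondrial genes in each library as log2 of its ratio to the WT mean, with lines for group means of these log values. Right, the summed counts of the mitochondrial members as a percentage of all counts, with lines joining libraries that share a number: the CKO libraries lie at 2.06% to 2.57%, the WT libraries at 1.80% to 2.27%, and at each shared number the CKO library is above the WT library.

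Summed over the mitochondrial members, counts made up 2.51%, 2.42% and 2.10% of the library in strong CKO lungs, 2.57%, 2.46% and 2.06% in weak CKO lungs, and 2.27%, 2.13% and 1.80% in WT lungs. The group means were 2.35% ± 0.21 in strong CKO lungs, 2.37% ± 0.27 in weak CKO lungs and 2.07% ± 0.24 in WT lungs (SD, n = 3 each), and the groups overlapped. In this share of raw counts, libraries with the same middle number differed in 1 direction. MUT_S_265_5 was 0.240 percentage points above WT_265_1 and MUT_S_268_4 was 0.292 above WT_268_1. MUT_W_265_2 was 0.301, MUT_W_268_3 was 0.330 and MUT_W_549_3 was 0.260 percentage points above the WT library of its number. Gene by gene in CPM, the strong CKO library was higher at 2 of 2 numbers for mt-Nd1, mt-Nd4, mt-Nd5, mt-Nd6 and mt-Cytb. It was higher at 1 of 2 for mt-Nd2 and at 0 of 2 for mt-Co1. The weak CKO library was higher at 3 of 3 for mt-Nd1, mt-Nd2, mt-Nd4, mt-Nd5 and mt-Cytb, and at 2 of 3 for mt-Nd6 and mt-Co1. These genes share libraries, scaling and genome, so they are not replicates of each other, and the numbers are not known to mark pairs. A share of raw totals moves with the rest of the library, and no p is given. The raw share of the nuclear members was also higher in the CKO library at each shared number. It was 0.624% to 0.683% in strong CKO lungs, 0.6105% to 0.675% in weak CKO lungs and 0.584% to 0.614% in WT lungs. On the TMM scale the summed mitochondrial members had 24210 CPM in both MUT_S_265_5 and WT_265_1, and the other same-numbered CKO libraries were above WT.

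The balance between the genomes, as log2 of summed mitochondrial over summed nuclear member counts, was 1.88, 1.89 and 1.75 in strong CKO lungs, 2.07, 1.97 and 1.61 in weak CKO lungs, and 1.93, 1.87 and 1.55 in WT lungs. The strong CKO libraries lay inside the WT range. Against the WT library of the same number, the difference was -0.05 for MUT_S_265_5 and 0.02 for MUT_S_268_4, and it was 0.15, 0.11 and 0.06 for MUT_W_265_2, MUT_W_268_3 and MUT_W_549_3. On the TMM scale the nuclear members together had 6135 to 6588 CPM in strong CKO lungs, 6156 to 6666 CPM in weak CKO lungs and 5995 to 6365 CPM in WT lungs.

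The nuclear genes were mostly level, with a small set that moved. Of the 81 nuclear members tested, 10 rose and 3 fell in strong CKO lungs against WT, where 14.6% of all genes rose and 11.0% fell. In weak CKO lungs 3 rose and 1 fell, where 9.09% of all genes rose and 5.38% fell. The called shares of nuclear members, 16.0% in strong and 4.94% in weak CKO lungs, were read against 25.6% and 14.5% over all genes. At an unadjusted p under 0.05 there were 20 nuclear members in strong CKO lungs (38.1% of all genes) and 17 in weak CKO lungs (28.6% of all genes). Libraries did not overlap with WT for 20 higher and 5 lower nuclear members in strong CKO lungs, where 41.7% of all genes did not, and for 16 higher and 2 lower in weak CKO lungs, where 31.4% of all genes did not. The median log2 change of the nuclear members was 0.06 in strong and 0.04 in weak CKO lungs, and over all genes it was within 0.01 of 0 in both.

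The nuclear members not called had log2 changes within 0.25 of 0 in 65 of 68 cases in strong CKO lungs and in 70 of 77 in weak CKO lungs. Their 95% intervals were also narrow. Counting called and uncalled nuclear members, 70 of 81 in strong CKO lungs and 76 of 81 in weak CKO lungs stayed inside a 1.5-fold change, which 47.5% and 51.5% of all genes did. The median SE of a log2 change was 0.08 for nuclear members, 0.14 for mitochondrial members and 0.14 for all genes, at median levels of 59.3, 2669 and 14.4 CPM. The part of abundance in these shares was not tested. In whole-tissue RNA, fewer cells of a type and less RNA per cell cannot be told apart.

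**Figure D3:**
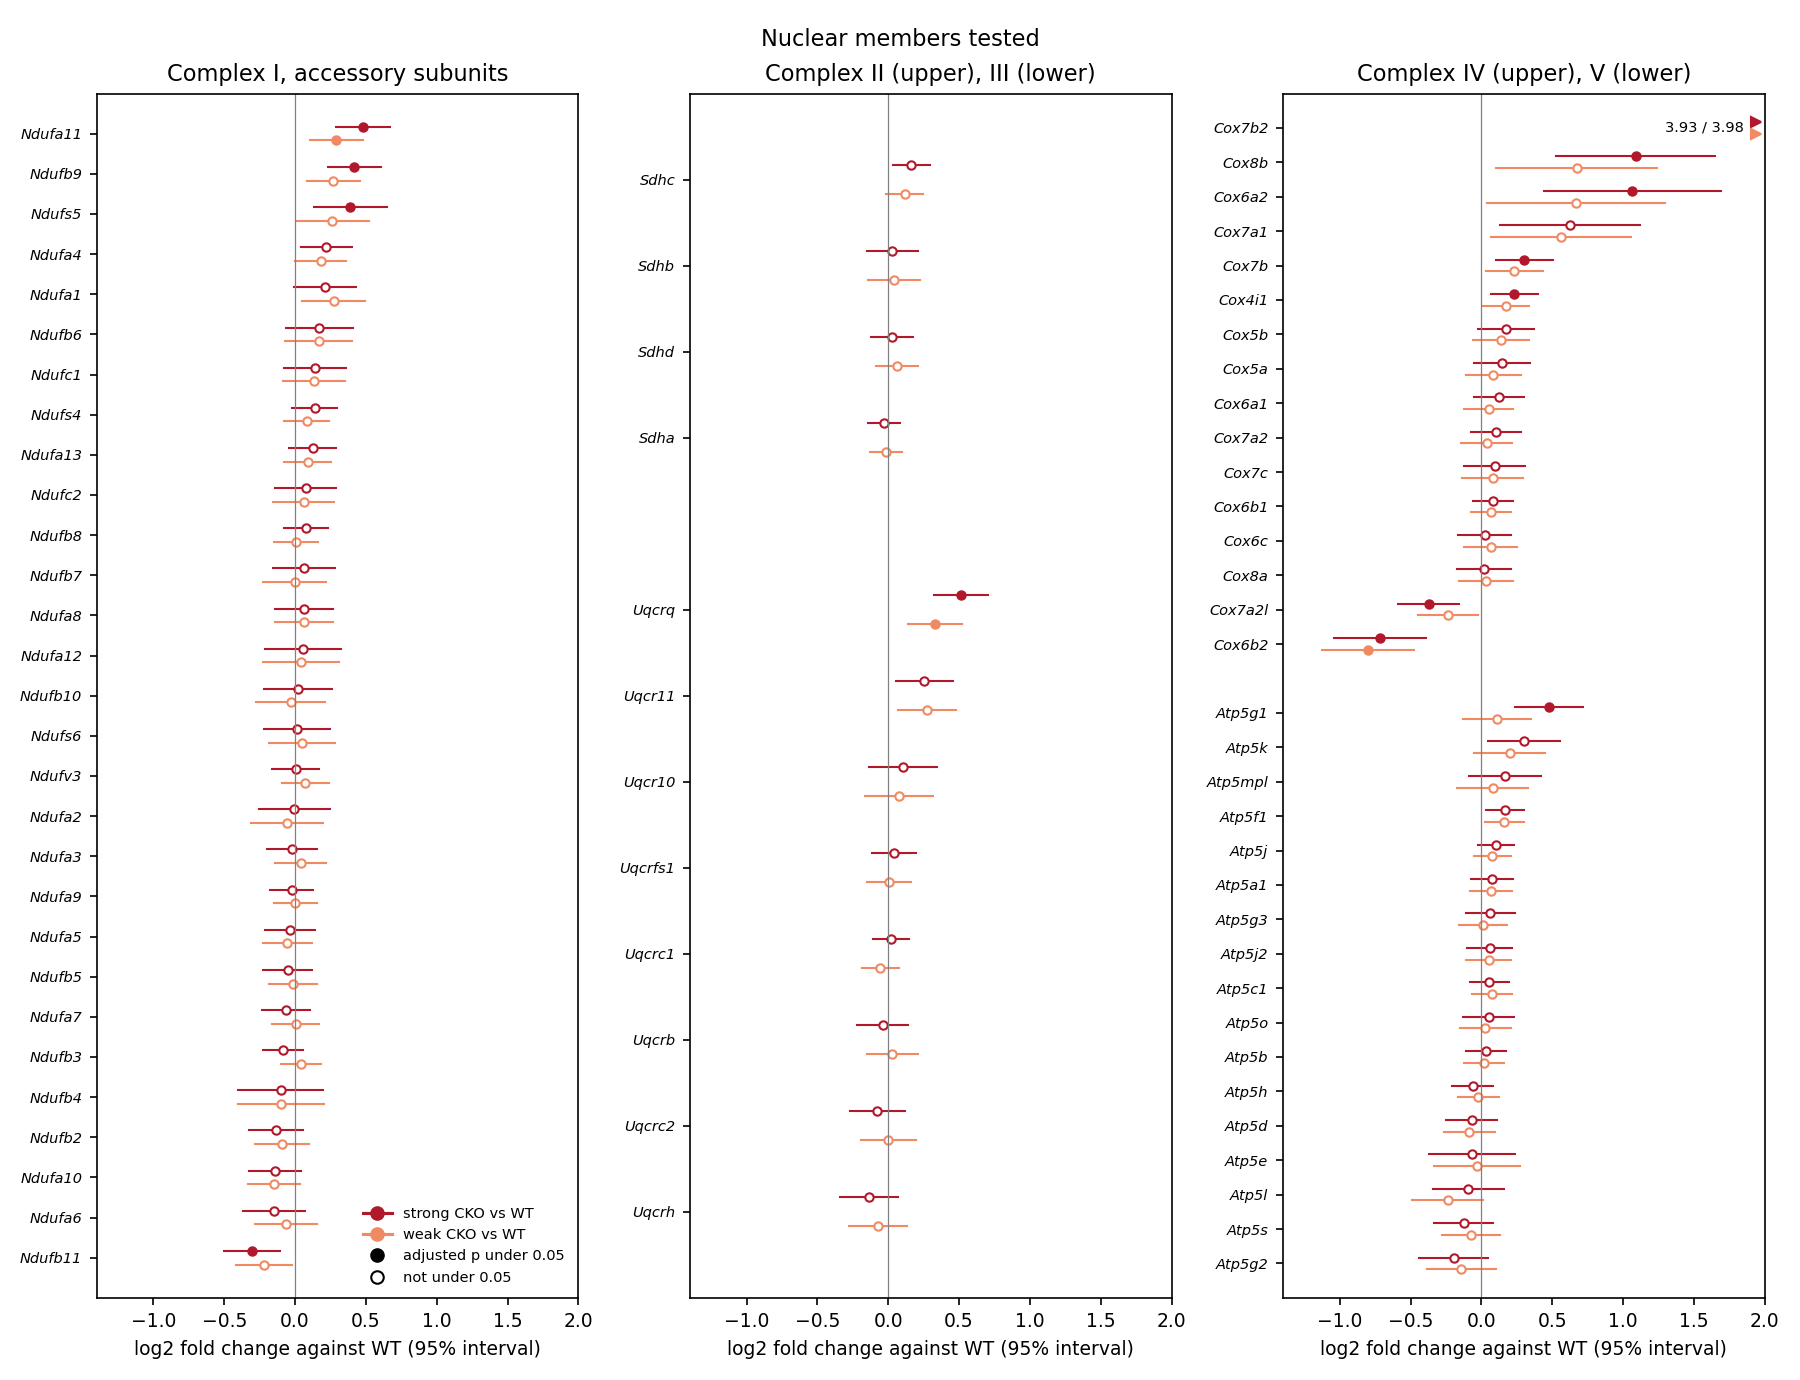
Log2 fold change of the nuclear members tested (for complex I, the 29 accessory subunits) in strong CKO (dark, upper) and weak CKO (light, lower) lungs against WT, with 95% intervals; filled points passed an adjusted p under 0.05. Cox7b2 lies off the axis at 3.93 in strong and 3.98 in weak CKO lungs, and most of the others lie within 0.25 of 0.

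In complex I, 3 of 36 nuclear members rose and 1 fell in strong CKO lungs, and 1 rose in weak CKO lungs. That is 11.1% called in strong CKO lungs, against 25.6% of all genes, and 2.78% in weak CKO lungs, against 14.5% of all genes. All were accessory subunits. Ndufa11, an accessory subunit of the membrane arm on chromosome 17 (56717767 to 56722141, plus strand), had 34.2, 31.8 and 31.1 CPM in strong CKO lungs, 28.9, 26.3 and 30.1 CPM in weak CKO lungs, and 21.2, 24.3 and 24.2 CPM in WT lungs. All 6 CKO libraries were above all WT libraries. The log2 change was 0.48 ± 0.08 in strong CKO lungs (edgeR adjusted p = 0.00276) and 0.29 ± 0.08 in weak CKO lungs (edgeR adjusted p = 0.0441). The weak CKO call was lost whenever any of the 9 libraries was left out, with adjusted p up to 0.126. Its exons overlap those of Vmac on the other strand.

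Ndufb9, a membrane-arm subunit with an LYR motif, had 38.2, 34.5 and 34.6 CPM in strong CKO lungs, 30.6, 32.0 and 34.2 CPM in weak CKO lungs, and 27.5, 24.3 and 28.6 CPM in WT lungs. No CKO library reached down into the WT range. It rose by 0.42 ± 0.08 on the log2 scale in strong CKO lungs (edgeR adjusted p = 0.00544), and its change of 0.27 ± 0.08 in weak CKO lungs did not pass (edgeR adjusted p = 0.0591). Its exons overlap those of Gm49356 on the same strand, so its reads cannot be assigned with certainty. Ndufs5 rose by 0.39 ± 0.12 in strong CKO lungs, a call kept in 4 of 9 refits that each left out 1 library and lost without WT_265_1, WT_268_1, MUT_W_268_3, MUT_S_265_5 or MUT_S_268_4 (adjusted p up to 0.109). Ndufb11, a membrane-arm subunit encoded on chromosome X, fell by 0.30 ± 0.09 in strong CKO lungs, with 90.9, 85.0 and 79.4 CPM there, 89.5, 83.0 and 98.5 CPM in weak CKO lungs, and 117, 96.7 and 102 CPM in WT lungs. Its groups separate only for strong CKO against WT, the call was lost without WT_265_1, WT_549_2, MUT_S_268_4 or MUT_S_860_3 (adjusted p up to 0.118) and under column totals or limma on RPKM (adjusted p 0.0579 to 0.0919), and its exons overlap those of Rbm10 on the other strand.

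Complex II, succinate dehydrogenase, had 0 of 4 members called by edgeR in both contrasts, and with an unadjusted p under 0.05 only Sdhc in strong CKO lungs. Over all genes, 25.6% were called in strong and 14.5% in weak CKO lungs, and 38.1% and 28.6% had an unadjusted p under 0.05. Sdha, the flavoprotein, stood at 197, 200 and 195 CPM in strong CKO lungs, 199, 195 and 202 CPM in weak CKO lungs, and 202, 196 and 204 CPM in WT lungs. Its 95% interval in strong CKO lungs ran from 0.908-fold to 1.06-fold. Sdhc, a membrane anchor, had 89.7, 88.6 and 85.2 CPM in strong CKO lungs, 80.0, 85.8 and 89.6 CPM in weak CKO lungs, and 77.1, 79.8 and 78.5 CPM in WT lungs. Those CKO libraries were all above WT, but the change of 0.16 ± 0.06 did not pass in strong CKO lungs (edgeR adjusted p = 0.0702). Sdhb and Sdhd overlapped between the groups.

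In complex III only Uqcrq was called, among 8 nuclear members. That is 12.5% in each contrast, against 25.6% of all genes in strong and 14.5% in weak CKO lungs. Uqcrq, a small subunit bound to cytochrome b, lies on chromosome 11 (53427922 to 53430831, minus strand). It had 49.7, 43.3 and 45.1 CPM in strong CKO lungs, 39.6, 39.3 and 42.7 CPM in weak CKO lungs, and 31.6, 29.7 and 35.5 CPM in WT lungs. The 3 groups did not overlap, with the strong CKO libraries on top. Uqcrq rose by 0.51 ± 0.09 in strong CKO lungs (edgeR adjusted p = 0.00205), a call kept in 9 of 9 refits, and by 0.33 ± 0.09 in weak CKO lungs (edgeR adjusted p = 0.0288), kept in 4 of 9 and lost without WT_265_1, WT_268_1 or any weak CKO library (adjusted p up to 0.0857). Its partner in the complex from mitochondrial DNA, mt-Cytb, was not called. Uqcr11, another small subunit, had 41.8, 39.8 and 39.3 CPM in strong CKO lungs, 38.5, 40.1 and 43.7 CPM in weak CKO lungs, and 29.8, 33.7 and 37.8 CPM in WT lungs. All 6 CKO libraries were above all WT libraries, but its log2 changes of 0.26 ± 0.09 in strong (edgeR adjusted p = 0.0649) and 0.27 ± 0.09 in weak CKO lungs (edgeR adjusted p = 0.0740) did not pass. Log2 changes in strong CKO lungs were 0.04 ± 0.07 for the Rieske protein gene Uqcrfs1, -0.04 ± 0.08 for Uqcrb and -0.14 ± 0.09 for the hinge gene Uqcrh, and none of the 3 passed.

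In complex IV, 5 of 16 tested nuclear members rose and 2 fell in strong CKO lungs (25.6% of all genes were called there), and 1 rose and 1 fell in weak CKO lungs (14.5% of all genes). Whether complexes differ in their share of calls was not tested. The largest change of all members was in Cox7b2, the testis form of subunit VIIb, on chromosome 5 (71442824 to 71548205, minus strand). It had 2.259, 1.498 and 1.705 CPM in strong CKO lungs, 2.76, 1.82 and 1.10 CPM in weak CKO lungs, and 0.105, 0.0646 and 0.187 CPM in WT lungs. Every CKO library was above every WT library, and the WT values rest on 11 counts in 3 libraries. Cox7b2 rose 15.2-fold in strong CKO lungs (95% interval 7.33 to 31.5, edgeR adjusted p = 0.000329) and 15.8-fold in weak CKO lungs (7.64 to 32.6, edgeR adjusted p = 0.000473), and both calls were kept in 9 of 9 refits. Its general partner Cox7b, on chromosome X, stayed far more abundant, at 112, 89.6 and 95.3 CPM in strong CKO lungs, 94.8, 90.9 and 96.7 CPM in weak CKO lungs, and 87.9, 78.1 and 74.6 CPM in WT lungs. Cox7b rose by 0.30 ± 0.09 on the log2 scale in strong CKO lungs, lost without WT_268_1, WT_549_2, MUT_S_265_5 or MUT_S_860_3 (adjusted p up to 0.111), and its 0.23 ± 0.09 in weak CKO lungs did not pass.

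The testis form of subunit VIb, Cox6b2 (chromosome 7, 4751792 to 4753094, minus strand), moved the other way. It had 11.9, 11.3 and 11.3 CPM in strong CKO lungs, 9.40, 10.3 and 12.9 CPM in weak CKO lungs, and 16.6, 17.4 and 22.7 CPM in WT lungs. All 6 CKO libraries were below all WT libraries. It fell by 0.71 ± 0.15 in strong CKO lungs (edgeR adjusted p = 0.00581) and by 0.80 ± 0.15 in weak CKO lungs (edgeR adjusted p = 0.00596), both kept in 9 of 9 refits. Its general partner Cox6b1 overlapped between groups, at 107 to 121 CPM in strong CKO lungs, 111 to 116 CPM in weak CKO lungs and 104 to 113 CPM in WT lungs. The testis form of subunit VIII, Cox8c, was below the filter, with a sum of 8 counts over the strong CKO libraries, 6 over the weak CKO libraries and 0 over the WT libraries.

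The forms of heart and skeletal muscle were low and higher in CKO lungs. Cox8b had 1.092, 0.963 and 1.003 CPM in strong CKO lungs, 0.920, 0.656 and 0.721 CPM in weak CKO lungs, and 0.489, 0.420 and 0.529 CPM in WT lungs. Cox6a2 had 3.62, 2.28 and 2.21 CPM in strong CKO lungs, 2.35, 1.55 and 2.26 CPM in weak CKO lungs, and 1.5, 0.937 and 1.43 CPM in WT lungs. In both genes all CKO libraries were above all WT libraries. Cox8b rose by 1.09 ± 0.25 in strong CKO lungs (edgeR adjusted p = 0.0107), kept in 9 of 9 refits. Cox6a2 rose by 1.07 ± 0.28 (edgeR adjusted p = 0.0193), which was lost without MUT_S_265_5 (adjusted p = 0.0833) or WT_268_1 (adjusted p = 0.0646). In weak CKO lungs Cox8b (0.67 ± 0.26) and Cox6a2 (0.67 ± 0.28) did not pass. Cox7a1 had log2 changes of 0.62 ± 0.22 in strong and 0.56 ± 0.22 in weak CKO lungs and passed in neither. The general forms Cox8a, Cox6a1 and Cox7a2 overlapped between the groups, with log2 changes in strong CKO lungs of 0.02 ± 0.09, 0.12 ± 0.08 and 0.10 ± 0.08. The exons of Cox6a2 overlap those of Itgad on the other strand.

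Most tested genes of striated muscle were also higher in CKO lungs. Of 16 tested genes in a list of 19, 10 rose and 1 fell in strong CKO lungs and 5 rose and 1 fell in weak CKO lungs, with Myh6, the cardiac alpha myosin heavy chain, up by 1.24 ± 0.22 in strong and 0.91 ± 0.22 in weak CKO lungs. The called shares were 68.8% in strong and 37.5% in weak CKO lungs, against 25.6% and 14.5% of all genes. The summed list had 599, 481 and 372 CPM in strong CKO lungs, 407, 374 and 500 CPM in weak CKO lungs, and 320, 313 and 358 CPM in WT lungs. MUT_S_265_5 was highest for this sum, for Cox6a2 and for Cox8b. MUT_W_549_3 had 500 CPM in the sum, 0.721 CPM of Cox8b and 2.26 CPM of Cox6a2. MUT_S_860_3 had 372 CPM in the sum, 1.003 CPM of Cox8b and 2.21 CPM of Cox6a2. Myoglobin (Mb), Nppa and Myl2, markers of adult muscle, atrium and ventricle, were below the filter. The part of muscle tissue in the rise of Cox8b and Cox6a2 was not tested. Red cell genes summed to 6869 to 12790 CPM in strong CKO lungs, 3879 to 4510 CPM in weak CKO lungs and 4070 to 7529 CPM in WT lungs, with 0 of 14 higher and 2 lower in each CKO group. That is 14.3% called in each, against the same 25.6% and 14.5% of all genes. The median log2 change of these 14 genes was 0.21 in strong and -0.42 in weak CKO lungs against WT. Between strong and weak CKO lungs it was 0.76, with 0 of 14 called, where 0.00516% of all genes were called. Liver markers (4 genes) summed to at most 2.15 CPM. The brown fat markers Ucp1 and Cidea summed to 0.321 to 0.414 CPM in strong CKO lungs, 0.409 to 0.447 CPM in weak CKO lungs and 0.0934 to 0.244 CPM in WT lungs, and Cidea, the 1 gene tested, rose in both.

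**Figure D4:**
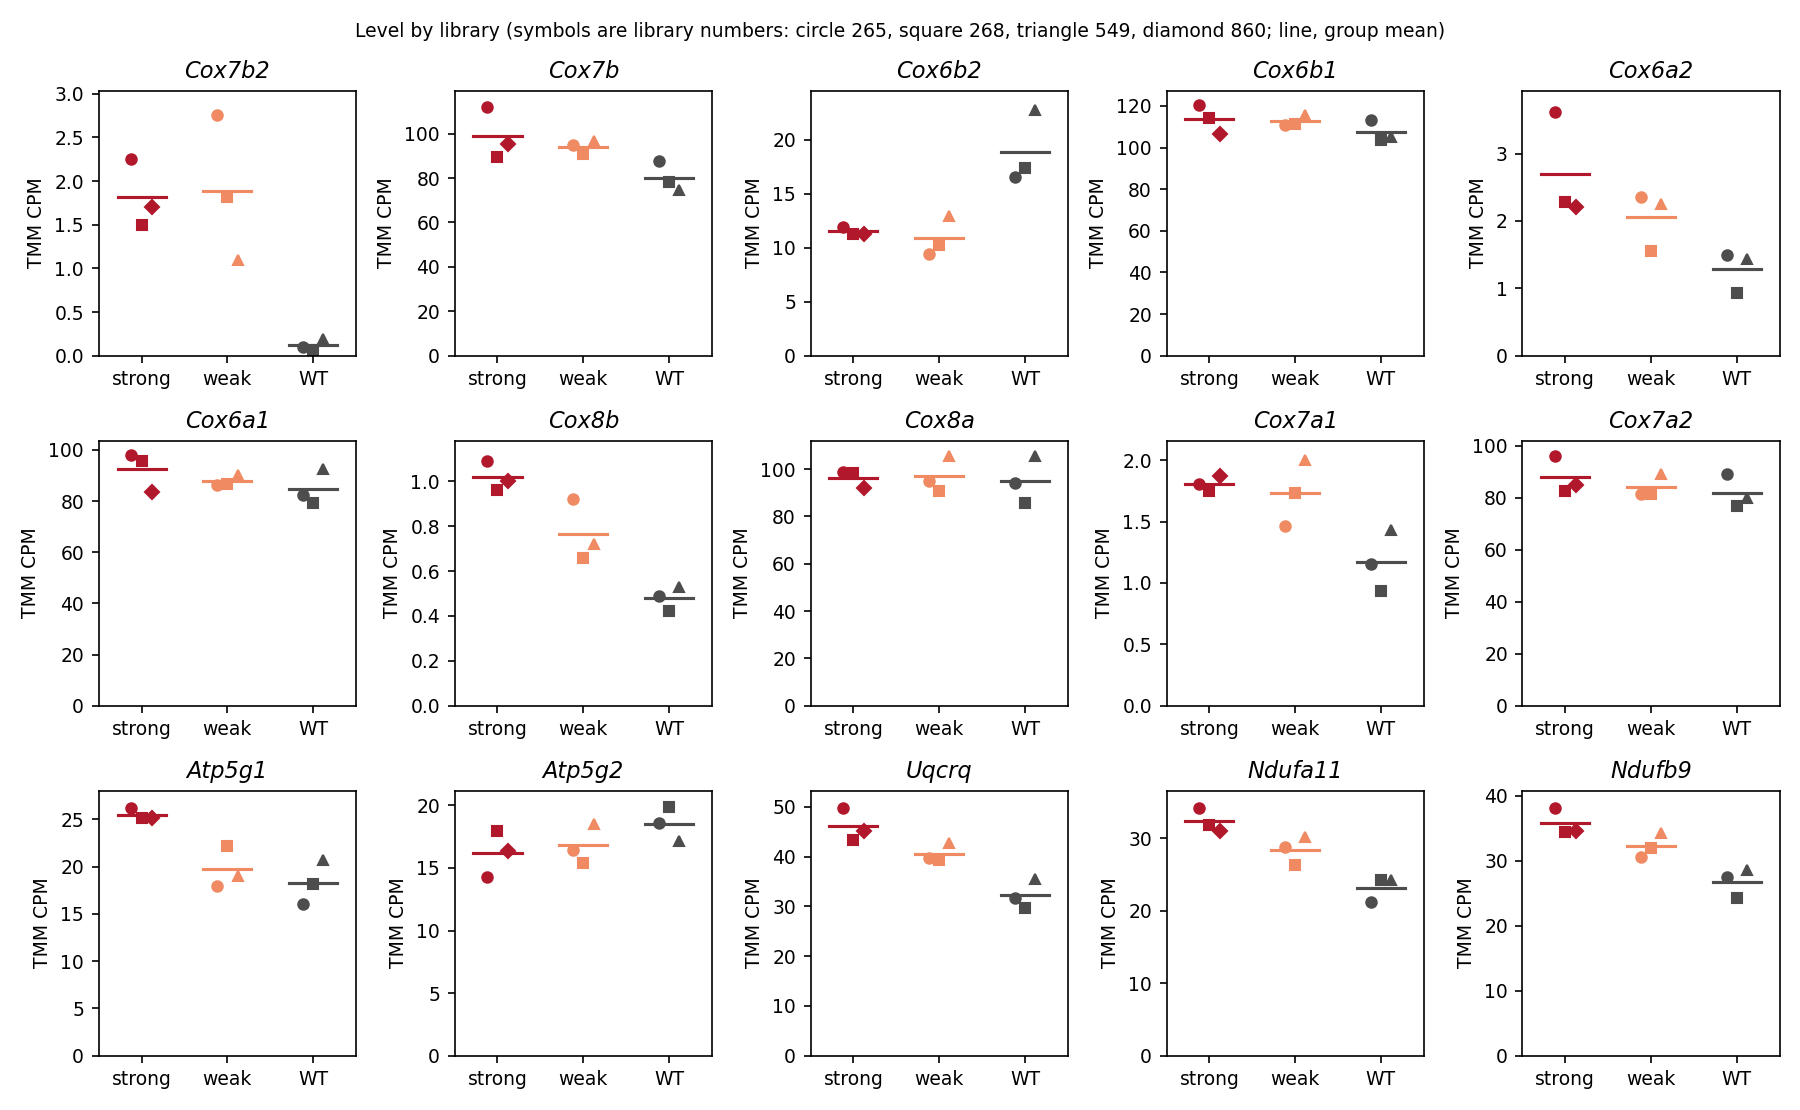
CPM per library of called members and their general or sister forms, with the axis of each panel starting at 0 and lines for group means. The called members Ndufs5, Ndufb11, Cox4i1 and Cox7a2l are not drawn. Cox7b2, Cox7b, Cox6a2, Cox8b, Cox7a1, Uqcrq, Ndufa11 and Ndufb9 separate both CKO groups upward from WT and Cox6b2 downward, while Cox6b1, Cox6a1, Cox8a and Cox7a2 overlap.

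The remaining calls in complex IV were small. Cox4i1, the general form of the regulatory subunit IV, rose by 0.23 ± 0.07 in strong CKO lungs, with 278, 260 and 257 CPM there, 246, 251 and 266 CPM in weak CKO lungs, and 226, 205 and 245 CPM in WT lungs. The call was kept in 2 of 9 refits, those without WT_549_2 or MUT_W_549_3 (adjusted p up to 0.133 in the rest), its exons overlap those of Emc8 on the other strand, and the change of 0.17 ± 0.07 in weak CKO lungs did not pass. Cox7a2l, which joins complexes III and IV into supercomplexes, had 78.0, 82.0 and 78.8 CPM in strong CKO lungs, 79.1, 84.5 and 98.8 CPM in weak CKO lungs, and 112, 90.9 and 106 CPM in WT lungs. It fell by 0.37 ± 0.10 in strong CKO lungs (edgeR adjusted p = 0.0173), lost without WT_265_1, WT_549_2, MUT_S_265_5 or MUT_S_860_3 (adjusted p up to 0.0655). Ndufa4, once counted with complex I and now placed in complex IV, is kept among the complex I members in the counts given here. Its log2 change of 0.22 ± 0.08 in strong CKO lungs did not pass (edgeR adjusted p = 0.0711), with all CKO libraries above all WT libraries.

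In complex V, 1 of 17 members rose in strong CKO lungs and edgeR called 0 in weak CKO lungs, where 1 had an unadjusted p under 0.05. The share called in strong CKO lungs was 5.88%, against 25.6% of all genes, and 14.5% of all genes were called in weak CKO lungs. Atp5g1, Atp5g2 and Atp5g3 encode precursors of the same mature c subunit of the rotor ring and differ in their import sequences. Atp5g1 had 26.2, 25.2 and 25.1 CPM in strong CKO lungs, 17.95, 22.1 and 19.1 CPM in weak CKO lungs, and 16.1, 18.2 and 20.7 CPM in WT lungs. The strong CKO libraries stood above the other 6, and weak CKO and WT libraries overlapped. It rose by 0.48 ± 0.11 in strong CKO lungs (edgeR adjusted p = 0.00927), kept in 9 of 9 refits, and its change in weak CKO lungs was 0.11 ± 0.11. Atp5g3, the most abundant of the 3 with 125 to 148 CPM in strong CKO lungs, 127 to 143 CPM in weak CKO lungs and 127 to 137 CPM in WT lungs, had a log2 change of 0.06 ± 0.08 in strong CKO lungs. That of Atp5g2 was -0.19 ± 0.11. Neither passed. The catalytic subunit genes Atp5a1 and Atp5b had changes of 0.08 ± 0.07 and 0.04 ± 0.06 in strong CKO lungs, with 95% intervals from 0.950-fold to 1.17-fold and from 0.929-fold to 1.13-fold.

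Between strong and weak CKO lungs, edgeR called 0 of 88 members, and 0.00516% of all genes. At an unadjusted p under 0.05 there were 2 members against 5.67% of all genes, and DESeq2 called 0. The 2 members were Atp5g1, with a log2 change of 0.37 ± 0.11 and a 95% interval of 1.10-fold to 1.52-fold, and Ndufa11, with 0.19 ± 0.08. Intervals stayed inside a 1.5-fold change for 84 of 88 members, against 60.1% of all genes. Of the 13 members called in strong CKO lungs, 4 were also called in weak CKO lungs, and the 2 comparisons share the WT libraries.

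Promoters are shown for the 2 testis forms that moved in opposite directions and for Ndufa11, since DNA methylation acts at CpG and the series deletes its maintenance enzyme. RefSeq promoters (GRCm38.p6, 250 bases before to 50 after the start) were matched for 68 of 82 nuclear members, with 73 start sites. In the promoters of Cox7b2 and Cox6b2 the capitals mark each CpG, and in that of Ndufa11 they mark the letters GCGCATGCG, taken from the site of NRF1, a regulator of respiratory genes.
Cox7b2, chr5:71548156-71548455, minus strand: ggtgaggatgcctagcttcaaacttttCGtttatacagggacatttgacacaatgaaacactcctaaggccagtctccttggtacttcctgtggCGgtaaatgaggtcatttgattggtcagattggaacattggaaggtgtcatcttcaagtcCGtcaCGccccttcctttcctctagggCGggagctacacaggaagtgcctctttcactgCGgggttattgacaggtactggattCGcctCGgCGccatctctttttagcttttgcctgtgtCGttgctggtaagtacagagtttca
Cox6b2, chr7:4753045-4753344, minus strand: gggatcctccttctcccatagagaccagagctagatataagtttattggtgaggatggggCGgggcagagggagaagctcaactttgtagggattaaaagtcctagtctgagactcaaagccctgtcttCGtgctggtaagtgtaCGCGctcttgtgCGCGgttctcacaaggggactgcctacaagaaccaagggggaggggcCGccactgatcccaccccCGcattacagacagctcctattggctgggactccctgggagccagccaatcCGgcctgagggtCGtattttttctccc
Ndufa11, chr17:56717512-56717811, plus strand: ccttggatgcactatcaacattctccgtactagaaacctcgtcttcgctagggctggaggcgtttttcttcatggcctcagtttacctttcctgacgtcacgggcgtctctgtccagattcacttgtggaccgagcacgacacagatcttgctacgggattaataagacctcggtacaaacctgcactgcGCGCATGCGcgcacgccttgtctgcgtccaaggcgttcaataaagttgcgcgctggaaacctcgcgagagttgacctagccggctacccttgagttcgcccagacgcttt

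The Cox7b2 promoter, of the gene that rose 15.2-fold in strong CKO lungs, and the Cox6b2 promoter, of the gene that fell, each hold 10 CpG, above the median of 7 over all 32851 promoters and below the median of 19 over member promoters. Cox6b1 has 17 CpG and Cox6a1 has 32, while Cox7b has 5, Cox7a1 has 7 and Cox8b has 2. DNA methylation was not measured in these files. Motifs were searched on both strands as exact letters. GCGCATGCG, whose reverse complement overlaps it in a palindromic NRF1 site, was in 8 of 73 member promoters (11%) and in 1.75% of all promoters. The 8 members were Atp5g2, Atp5k, Atp5l, Cox6a1, Ndufa11, Ndufa8, Uqcr11 and Uqcrc1. CCGGAAG, bound by GABPA and other ETS factors, was in 16 member promoters (21.9%) and 8.86% of all promoters. AAGATGGC, bound by YY1, was in 10 member promoters (13.7%) and 2.75% of all promoters. AAGGTCA, a site of nuclear receptors such as ERRA, was in 8 member promoters (11%) and 4.72% of all promoters. These shares were not adjusted for the number of CpG in a promoter. Of the 8 members with the GCGCATGCG letters, Ndufa11 was called and the others were not, where 25.6% of all genes were called in strong and 14.5% in weak CKO lungs. The weak CKO call of Ndufa11 is the one lost in every refit. The 4 motifs do not contain each other.

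The genes that work around the chain were read from lists of known function, against the same 25.6% of all genes called in strong and 14.5% in weak CKO lungs. Of 27 tested genes that transcribe and process mitochondrial RNA, 3 rose and 2 fell in strong CKO lungs, and 2 rose in weak CKO lungs. Pnpt1, the polynucleotide phosphorylase that takes part in the decay of mitochondrial RNA, had 123, 125 and 170 CPM in strong CKO lungs, 139, 144 and 111 CPM in weak CKO lungs, and 40.4, 40.1 and 34.7 CPM in WT lungs. All CKO libraries were far above WT, with log2 changes of 1.86 ± 0.14 in strong CKO lungs (edgeR adjusted p = 3.45e-05) and 1.77 ± 0.14 in weak CKO lungs (edgeR adjusted p = 5.93e-05), and both calls were kept in 9 of 9 refits. The mitochondrial mRNAs listed above were not called beside it. Trmt10c, a subunit of mitochondrial RNase P, rose by 0.34 ± 0.10 in strong and 0.39 ± 0.10 in weak CKO lungs, each kept in 6 of 9 refits. Tfam, which packages and transcribes mitochondrial DNA, rose by 0.22 ± 0.06 in strong CKO lungs, while Hsd17b10 and the poly(A) polymerase Mtpap fell by 0.26 ± 0.08 and 0.21 ± 0.06, and these 3 calls were kept in 2 to 5 of 9 refits.

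Of the 2 mitochondrial rRNAs, which come from the same genome as the mRNAs, mt-Rnr1 was called, and rRNA was not tested against mRNA. mt-Rnr1, the small rRNA, had 680, 597 and 679 CPM in strong CKO lungs, 649, 665 and 497 CPM in weak CKO lungs, and 499, 303 and 395 CPM in WT lungs. The strong CKO libraries were all above WT, and MUT_W_549_3 was just below the highest WT library, WT_265_1. It rose by 0.71 ± 0.17 in strong CKO lungs (edgeR adjusted p = 0.0150), lost without MUT_S_265_5 (adjusted p = 0.0503), and by 0.60 ± 0.17 in weak CKO lungs (edgeR adjusted p = 0.0470), kept in 2 of 9 refits. mt-Rnr2, the large rRNA, had log2 changes of 0.52 ± 0.22 in strong and 0.36 ± 0.22 in weak CKO lungs, did not pass, and overlapped between the groups. How rRNA was removed or mRNA selected was not given, and rRNA counts depend on that step. Of 77 proteins of the mitochondrial ribosome tested, 5 rose and 1 fell in strong CKO lungs and 3 rose and 2 fell in weak CKO lungs, with Mrps16 up by 0.35 ± 0.09 and Mrpl14 down by 0.48 ± 0.10 in strong CKO lungs.

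Among 15 genes of mitochondrial DNA replication, Polg, the catalytic subunit of its polymerase, fell by 0.35 ± 0.06 in strong CKO lungs (edgeR adjusted p = 0.00206) and by 0.31 ± 0.06 in weak CKO lungs (edgeR adjusted p = 0.00658), kept in 9 of 9 refits. The pyrimidine nucleotide carrier gene Slc25a33 rose by 0.63 ± 0.20 in strong CKO lungs, kept in 3 of 9. Of 45 assembly factors tested, 2 rose in strong CKO lungs, the complex I factor Timmdc1 (0.41 ± 0.09) and the complex II factor Sdhaf2 (0.30 ± 0.08), and edgeR called 0 in weak CKO lungs, with 3 at an unadjusted p under 0.05. Among 15 electron carrier and quinone synthesis genes, 2 rose in strong CKO lungs. They were Cyc1, the cytochrome c1 of complex III, which the symbol rule leaves outside the members, with 0.34 ± 0.07, and Coq8b with 0.46 ± 0.09, and both were kept in 9 of 9 refits. edgeR called 0 of these 15 in weak CKO lungs, with 3 at an unadjusted p under 0.05.

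In the tricarboxylic acid cycle and its entry steps, 2 of 18 genes rose and 2 fell in strong CKO lungs, and 2 rose in weak CKO lungs. Mdh2, the mitochondrial malate dehydrogenase, had 160, 151 and 157 CPM in strong CKO lungs, 141, 145 and 146 CPM in weak CKO lungs, and 105, 111 and 120 CPM in WT lungs. The groups did not overlap, and it rose by 0.48 ± 0.06 in strong (edgeR adjusted p = 0.000517) and 0.37 ± 0.06 in weak CKO lungs (edgeR adjusted p = 0.00400). Pcx, pyruvate carboxylase, rose by 0.22 ± 0.06 and 0.27 ± 0.06 in the same contrasts, while Idh3b and Pdha1 fell by 0.19 ± 0.06 and 0.24 ± 0.08 in strong CKO lungs, and these calls were kept in 5 of 9 refits for Idh3b and 1 of 9 for Pdha1. Of 22 membrane, import and mass genes, 5 rose in strong CKO lungs, with the adenine nucleotide carrier Slc25a4 up by 0.31 ± 0.06, the chaperone Hspa9 by 0.41 ± 0.08 and the import receptor Tomm70a by 0.24 ± 0.06, and in weak CKO lungs Slc25a4 alone rose, by 0.26 ± 0.06. Of 16 regulators of mitochondrial biogenesis, none rose, and Ncor1 and Gabpb2 fell by 0.20 ± 0.07 and 0.24 ± 0.08 in strong CKO lungs, kept in 1 and 2 of 9 refits. Ppargc1a, the PGC-1alpha coactivator gene, spanned 14.3 to 15.6 CPM in strong CKO lungs, 13.1 to 17.2 CPM in weak CKO lungs and 13.6 to 16.3 CPM in WT lungs.

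The hypoxia forms that the rule leaves out fell. They were listed with glycolysis, where of 20 table entries 3 fell in strong CKO lungs, Ndufa4l2, Cox4i2 and Pfkm (-0.44 ± 0.10), and 2 fell in weak CKO lungs, Ndufa4l2 and Pfkm (-0.33 ± 0.10), and none rose. Ndufa4l2, which replaces Ndufa4 under low oxygen, had 15.8, 22.9 and 17.4 CPM in strong CKO lungs, 21.1, 26.0 and 37.4 CPM in weak CKO lungs, and 45.9, 42.8 and 48.6 CPM in WT lungs. It fell by 1.29 ± 0.20 in strong CKO lungs (edgeR adjusted p = 0.00209) and by 0.70 ± 0.20 in weak CKO lungs (edgeR adjusted p = 0.0470), kept in 9 and 2 of 9 refits. Cox4i2, the partner form of Cox4i1, had 7.46, 13.6 and 10.03 CPM in strong CKO lungs, 10.6, 12.8 and 19.9 CPM in weak CKO lungs, and 26.1, 24.6 and 27.6 CPM in WT lungs. It fell by 1.33 ± 0.25 in strong CKO lungs (edgeR adjusted p = 0.00524), and its -0.85 ± 0.25 in weak CKO lungs did not pass (edgeR adjusted p = 0.0509). For both genes every CKO library was below every WT library. These genes are also known in pericytes. Endothelial markers moved with them, with 5 of 5 (Pecam1, Cdh5, Kdr, Tek and Tie1) called lower in strong and 2 of 5 in weak CKO lungs, where 11.0% and 5.38% of all genes fell. They had a summed 1278 to 1606 CPM in strong CKO lungs, 1726 to 1762 CPM in weak CKO lungs and 1930 to 2509 CPM in WT lungs. The part of vessel cells in these falls was not tested.

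Some other energy genes known mainly from male germ cells also rose. Of 6 tested genes in a list of 9, 4 rose and 1 fell in each CKO group. Over all genes, 25.6% were called in strong and 14.5% in weak CKO lungs. Cox7b2 is itself among the genes of this list that rose, and Cox6b2 is the 1 that fell. The list was chosen with earlier results of these data known. Slc25a31, the germ cell adenine nucleotide carrier, had 34.5, 21.1 and 28.3 CPM in strong CKO lungs, 28.5, 22.7 and 15.0 CPM in weak CKO lungs, and 1.85, 0.517 and 1.34 CPM in WT lungs. Cyct, testis cytochrome c, had 7.16, 4.35 and 5.48 CPM in strong CKO lungs, 2.86, 2.27 and 3.54 CPM in weak CKO lungs, and 0.209, 0.0646 and 0.125 CPM in WT lungs. No CKO library of these genes came near a WT library. The log2 changes were 4.51 ± 0.42 in strong and 4.17 ± 0.41 in weak CKO lungs for Slc25a31, and 5.43 ± 0.37 and 4.46 ± 0.38 for Cyct, with every call kept in 9 of 9 refits. Pdha2, the testis pyruvate dehydrogenase subunit, had 294 counts over the strong CKO libraries, 326 over the weak CKO libraries and 0 over the WT libraries. Against a floor of 3 counts over the WT libraries it was at least 106-fold higher in strong and at least 105-fold higher in weak CKO lungs. The somatic cytochrome c gene Cycs had log2 changes of 0.30 ± 0.11 in strong and 0.28 ± 0.11 in weak CKO lungs that did not pass. Gapdhs, the germ cell form of glyceraldehyde-3-phosphate dehydrogenase, overlapped between the groups, at 1.40 to 2.39 CPM in strong CKO lungs, 1.79 to 2.48 CPM in weak CKO lungs and 1.40 to 2.26 CPM in WT lungs.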

How the data were processed

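One table of gene counts was used, with 1 column per library. Raw counts per gene, as whole numbers, were deposited by the authors. Further columns held RPKM per the file headers, set on a gene length deposited by the authors that matched the summed exons of all transcripts within 5% for 26359 of 27207 genes. The tools named per the submitters' processing notes were STAR and edgeR 3.28.1, with GRCm38.p6 as build, after FastQC 0.11.8, Trimmomatic 0.36 and cutadapt 2.5. No source states the counter, annotation or strand setting. No label says that same-group samples came from separate litters; p-values therefore reflect only how far these libraries differ from each other.

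Counts were tested with edgeR 4.0.16 in R 4.3.3: filterByExpr by group, TMM factors (0.938 to 1.04), a robust quasi-likelihood fit over 9 libraries, and Benjamini-Hochberg adjustment over 19374 genes. The filter kept 88 of 90 members. The standard error of a log2 change was derived from its F value, without shrinkage. Fold bounds use a floor of 3 counts over the WT libraries, or 0.0327 CPM, which covers counting error only. Alternatives used DESeq2 1.42.0, limma 3.58.1 on log2(RPKM + 1) and log2(RPKM + 0.1), other scalings, no filter, and each library left out in turn (a refit). The steps were tested on simulated data. The fit is unpaired.

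Members and lists were chosen with earlier results of these data known. Named were all mitochondrial members, per complex and contrast up to 3 called members per direction by adjusted p, the 2 most abundant members per complex, tissue forms with their partners, untested members, and up to 3 called genes per direction of each list. Other named genes, such as Sdhc, Ndufb2, Uqcrb, Cycs, Ppargc1a, mt-Rnr2 and Cidea, were picked after their values were seen.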

Additional observations from a re-analysis of the deposited data

How the results depend on the processing

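Mitochondrial calls stayed at 0 in all 3 contrasts under each alternative that kept these genes, as did calls between strong and weak CKO lungs. The nuclear members that rose moved most. In weak CKO lungs there were 3, with 6 under column totals alone, 1 with only the groups compared, 5 with limma on log2(RPKM + 0.1), and 1 to 3 with a library left out. In strong CKO lungs there were 10, with 18 under column totals, and 6 to 12 with a library left out, the lowest without WT_268_1 or MUT_S_265_5. Column totals shift the median log2 change of all genes to 0.05 in weak and 0.09 in strong CKO lungs, and the calls over all genes to 3849 higher and 1428 lower in strong CKO lungs, against 2830 and 2139, and to 2272 and 702 in weak CKO lungs, against 1761 and 1042. The nuclear members that fell, 3 in strong and 1 in weak CKO lungs, became 1 to 3 and 1 to 2 with a library left out. With library number as a replicate block, 17 rose and 1 fell in strong CKO lungs and 8 rose in weak CKO lungs. Over all genes, the block fit called 4481 of 19837 in strong and 3952 in weak CKO lungs. Without the block, 4969 and 2803 of 19374 were called. With the block, Cox7a2l (edgeR adjusted p = 0.0654) and Ndufb11 (edgeR adjusted p = 0.0805) were not called. MUT_S_860_3 shares no number. Deviations of WT and weak CKO libraries correlated at 0.30, -0.087 and 0.35 at the same number, and at -0.38 to 0.075 otherwise. For WT and strong CKO libraries the values were 0.11 and 0.083, against -0.13 to 0.071. For weak and strong CKO libraries they were 0.17 and -0.00055, against -0.20 to 0.19. The main fit leaves the numbers out, and these values do not settle whether they mark pairs. For mt-Co1, refits without 1 library ran from -0.184 to 0.0915 in strong and from -0.0935 to 0.182 in weak CKO lungs. The sign turned in strong CKO lungs without WT_265_1 (0.0915) or MUT_S_860_3 (0.0071) and under column totals (0.039), and in weak CKO lungs without WT_549_2 (-0.0935) or MUT_W_265_2 (-0.031). For mt-Nd2 in strong CKO lungs they ran from -0.0495 to 0.140, negative without WT_549_2 (-0.0495) or MUT_S_268_4 (-0.017). With only the groups compared, Uqcrq (adjusted p = 0.0502) and Ndufa11 (0.0831) were not called in weak CKO lungs, nor Ndufs5 (0.0691), Cox7b (0.0569) and Cox4i1 (0.0688) in strong CKO lungs. The cause was not tested.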
